A study of Mus musculus with 6 samples.

Results

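The pyruvate dehydrogenase complex and its regulators were followed here as 10 genes: the E1 subunits Pdha1 and Pdhb, the E2 subunit Dlat, the E3-binding protein Pdhx, the kinases Pdk1, Pdk2 and Pdk4, the phosphatase catalytic subunits Pdp1 and Pdp2, and the phosphatase regulatory subunit Pdpr. They were taken by gene name from a table of 54929 rows, and all 10 were among the 14807 genes with enough reads to be tested. The tissue was left ventricle from wild-type C57BL/6 mice with TAC, transverse aortic constriction, an aortic narrowing that puts the left ventricle under pressure overload, so both groups carried the constriction. In 3 libraries the mice had received a control anti-IgG antibody and in 3 libraries an antibody to PD-1, a checkpoint receptor that restrains T cells. Both antibodies were given intraperitoneally at 10 mg/kg every 3 days from day 14 after surgery, and every sample has a time label of 5 weeks. There was no unoperated group among these samples, and the labels give no age and do not say whether a library was 1 animal or a pool, so a p-value covers only the variation among these libraries.

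The complex sits in the mitochondrial matrix and turns pyruvate into acetyl-CoA, which makes it the gate between glycolysis and the tricarboxylic acid cycle. E1 removes carbon dioxide from pyruvate, E2 passes the acetyl group to coenzyme A, and the E3-binding protein anchors E3, the dehydrogenase that re-oxidises the lipoyl arms of E2. Pyruvate dehydrogenase kinases phosphorylate E1 alpha and shut the complex off, and the phosphatases PDP1 and PDP2 reverse this. PDPR is a regulatory subunit of the phosphatase that lowers its sensitivity to magnesium. In the heart Pdk4 is the kinase best known for rising with fasting and with high fatty acid supply, when glucose oxidation is restrained.

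The genes of the set were chosen with the difference between these groups already known, chiefly that of Pdpr, so their differences below describe the libraries, and the adjusted p-values from the fit over all genes show where each gene stood in that fit and support nothing further. Levels are in CPM, read counts scaled to library size with TMM factors, unless another unit is named. Log2 fold changes compare anti-PD-1 with anti-IgG and carry their standard error (SE). With the threshold at 0.05 for p-values of edgeR's quasi-likelihood test, adjusted over all genes by Benjamini-Hochberg, 2 of the 10 genes were past it and higher with anti-PD-1, Pdpr and Pdk1, and 0 were lower. The shares over all tested genes were 21.1% past it, with 10.3% higher and 10.8% lower. Of the calls 48.9% were higher, and 36.8% with upper quartile in place of TMM scaling. None of the 10 was lower at an unadjusted p under 0.05 either, and DESeq2 and limma-voom also called 0 lower. In 5 of the 10 the anti-PD-1 values all lay above the anti-IgG values (Pdha1, Dlat, Pdk1, Pdk4 and Pdpr), as they did in 20.2% of all tested genes. The median log2 fold change was 0.53 over the 10 genes and -0.03 over all tested genes. In whole tissue, fewer cells of a type and less RNA per cell cannot be told apart.

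**Figure D1:**
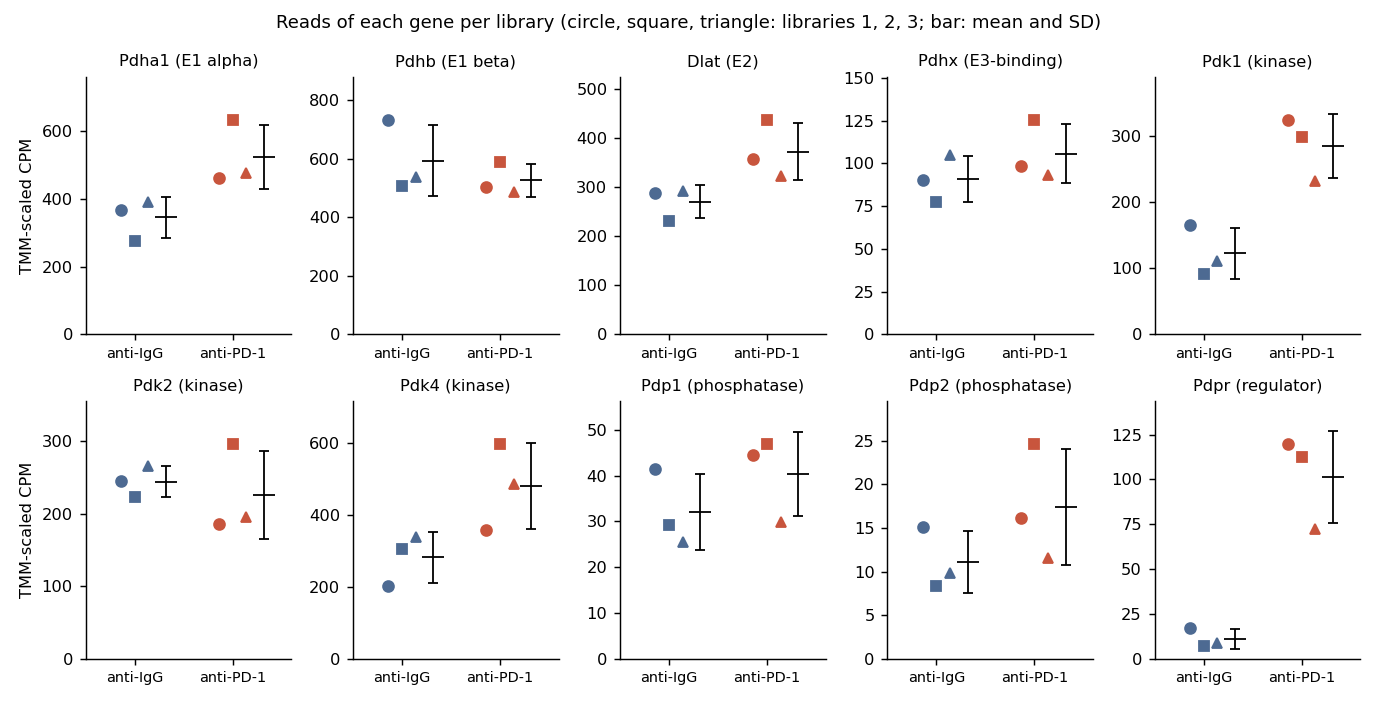
TMM-scaled CPM (y axis, from 0, a separate scale in each panel) of the 10 genes in the anti-IgG and anti-PD-1 libraries; symbols mark libraries 1 to 3, and the black bar beside each group is its mean and SD. The groups stand farthest apart in Pdpr, from 7.33 to 17.4 with anti-IgG and from 72.2 to 119.5 with anti-PD-1, while those of Pdhb, Pdhx, Pdk2, Pdp1 and Pdp2 overlap.

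Pdpr was the gene of the set that differed most. It had 339, 131 and 172 reads in anti-IgG libraries 1 to 3 and 2397, 2101 and 1502 reads in anti-PD-1 libraries 1 to 3. In CPM these were 17.4, 7.33 and 8.61 against 119.5, 112.6 and 72.2. The lowest anti-PD-1 library was thus well above the highest anti-IgG library, and within each group the libraries still differed, with anti-IgG library 1 and anti-PD-1 library 3 closest to the other group. The means were 11.1 ± 5.46 and 101 ± 25.6 CPM (SD, n = 3 each), a 9.12-fold difference (log2 fold change 3.19, SE 0.35, adjusted p = 0.00224 by edgeR), the ninth highest value of the 14807 genes (rank 9). It stayed past the threshold in each of 19 alternative analyses, those without 1 library included, with log2 fold changes from 2.73 to 3.67 and adjusted p of at most 0.0143.

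Pdpr lies on chromosome 8 (111094630 to 111137074, plus strand, mm10), and its longest annotated transcript with a coding sequence and a 3' UTR has 18 exons. Its last part overlaps the noncoding gene 9430091E24Rik on the opposite strand, with 8189 bp of gene body and 169 bp of exon in common. That gene had 73, 53 and 50 reads with anti-IgG and 187, 257 and 153 with anti-PD-1, so its groups did not overlap either (log2 fold change 1.72, SE 0.30, adjusted p = 0.00694 by edgeR). The sources used here do not give whether counting used strand, and without it the reads of the shared 169 bp cannot be assigned to either gene. Pdpr had more reads than 9430091E24Rik in all 6 libraries, and the call of 9430091E24Rik held in each of the 19 alternatives. The alternative that removes a trend on coding and 3' UTR length could not correct this noncoding gene, which has neither length.

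The promoters of Pdpr, Pdk1 and Pdk4 are shown because these regulators had the highest fold changes among the kinases and the phosphatase subunits of the set. Each window runs from 250 bases before to 50 bases after the transcription start that RefSeq gives (GRCm38.p6, the same assembly as mm10), read 5' to 3' along the gene's own strand. The Pdpr window is chr8:111094495-111094794 (plus strand), that of Pdk1 is chr2:71872974-71873273 (plus strand) and that of Pdk4 is chr6:5496229-5496528 (minus strand). Capitals mark matches, on either strand, to any of the motifs searched.

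Pdpr: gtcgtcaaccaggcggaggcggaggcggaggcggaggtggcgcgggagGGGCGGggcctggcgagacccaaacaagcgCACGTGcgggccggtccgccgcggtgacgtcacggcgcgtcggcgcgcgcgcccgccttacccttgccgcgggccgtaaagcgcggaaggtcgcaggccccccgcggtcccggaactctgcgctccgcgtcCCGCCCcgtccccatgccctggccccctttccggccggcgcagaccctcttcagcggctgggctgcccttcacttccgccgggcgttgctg

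Pdk1: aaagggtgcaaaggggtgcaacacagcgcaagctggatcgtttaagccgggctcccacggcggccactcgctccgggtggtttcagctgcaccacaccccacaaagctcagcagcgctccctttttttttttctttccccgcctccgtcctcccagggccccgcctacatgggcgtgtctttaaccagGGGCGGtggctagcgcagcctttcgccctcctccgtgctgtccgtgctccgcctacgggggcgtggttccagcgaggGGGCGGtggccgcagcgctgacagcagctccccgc

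Pdk4: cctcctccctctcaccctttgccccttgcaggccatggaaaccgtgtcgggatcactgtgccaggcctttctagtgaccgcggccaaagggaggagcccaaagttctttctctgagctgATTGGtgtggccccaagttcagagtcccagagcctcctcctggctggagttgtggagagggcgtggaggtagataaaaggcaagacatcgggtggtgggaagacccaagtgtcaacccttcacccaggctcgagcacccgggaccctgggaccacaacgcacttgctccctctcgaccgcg

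The Pdpr window was the richest of these in G and C, 76.7% against 66.0% in Pdk1 and 60.7% in Pdk4, where the median over 32851 RefSeq windows was 52.7%. It held 47 CG dinucleotides, Pdk1 25 and Pdk4 12. Another RefSeq window of Pdk1 (chr2:71874654-71874953, plus strand) is not shown. That window had 40.3% G and C, 2 CG dinucleotides and no match to the motifs searched. Among the windows shown, Pdpr carried GGGCGG (GC box) on both strands and 1 CACGTG (E-box). The Pdk1 window shown carried 2 GGGCGG, and Pdk4 carried 1 CCAAT on the opposite strand. GGGCGG was found in 35.7%, CACGTG in 7.15% and CCAAT in 37.4% of all windows. AGGTCA, the half-site of nuclear receptors such as PPARs, and AAGGTCA, the extended half-site of oestrogen-related receptors that contains it, were found in none of the 11 windows of 9 of these genes and in 16.3% and 4.72% of all windows. The forkhead motif GTAAACA (3.65% of all windows), TATAAA (13.6%) and TGCGCA, a core of the NRF1 motif (7.76%), were not found in the 11 windows. Such a match is a run of letters and not a measured binding site, and its absence says only that these letters are not in this window. Pdp1 had no entry.

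Among the kinases, Pdk1 differed most (chromosome 2, 71873224 to 71903858, plus strand, mm10). It had 166, 91.1 and 111 CPM in the anti-IgG libraries and 325, 299 and 232 CPM in the anti-PD-1 libraries. Each anti-PD-1 library was above each anti-IgG library, and anti-IgG library 1 was again the highest of the controls. The means were 123 ± 39.0 and 285 ± 47.9 CPM (SD, n = 3 each), with a log2 fold change of 1.22 (SE 0.25, adjusted p = 0.0105 by edgeR). Its call ended without anti-IgG library 2 (log2 fold change 1.02, adjusted p = 0.0585 by edgeR) and held in the other 18 alternatives.

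Pdk4 (chromosome 6, 5483351 to 5496309, minus strand) had 202, 305 and 339 CPM with anti-IgG and 358, 596 and 487 CPM with anti-PD-1. The groups did not overlap, but the highest control and the lowest anti-PD-1 library were close, and the libraries within a group spread widely. The means were 282 ± 71.4 and 481 ± 119 CPM (SD, n = 3 each), with a log2 fold change of 0.77 (SE 0.26) that just missed the threshold (adjusted p = 0.0544 by edgeR). It was past the threshold with RLE scaling (adjusted p = 0.0467), with the mitochondrially encoded and haemoglobin genes left out (0.0457), without the count filter (0.00869) and by DESeq2 (0.00927). Over all 19 alternatives the adjusted p ran from 0.00869 to 0.176 and the log2 fold change from 0.58 to 0.95.

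Pdk2, the kinase found in most tissues, had 245, 223 and 265 CPM with anti-IgG and 186, 296 and 196 CPM with anti-PD-1. Anti-PD-1 library 2 was above all controls and the other two below them, so the groups overlapped fully (log2 fold change -0.11, SE 0.22, adjusted p = 0.743 by edgeR). The sign was not stable, since it became positive in 3 alternatives, each with a value of at most 0.03. Pdk3, the fourth kinase and not a member of the set, was scarce, at 2.52 to 3.33 CPM with anti-IgG and 4.02 to 6.63 CPM with anti-PD-1 (log2 fold change 0.79, SE 0.31, adjusted p = 0.0874 by edgeR).

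Levels of different genes were compared per length, with the FPKM values the authors deposited. With anti-IgG, Pdk4 stood at 74.7 ± 18.7 FPKM, Pdk2 at 71.9 ± 6.79 and Pdk1 at 14.7 ± 4.80 (SD, n = 3). Pdk4 and Pdk2 did not differ beyond their spread there, Pdk4 being the higher of the pair in 2 of 3 libraries. With anti-PD-1, Pdk4 stood at 129 ± 30.4, Pdk2 at 67.4 ± 16.9 and Pdk1 at 34.6 ± 5.67 FPKM, and these ranges no longer met. Pdk4 thus made up 36.8, 51.4 and 49.6% of the summed FPKM of the 3 kinases in the anti-IgG libraries and 50.4, 56.3 and 60.2% in the anti-PD-1 libraries, and these shares overlapped. Pdk2 made up 44.8 ± 4.2% and 29.0 ± 2.07%, without overlap between the groups, and Pdk1 9.31 ± 3.79% and 15.4 ± 4.48%, with overlap. Within libraries, Pdk4 stood at 0.743, 1.23 and 1.15 times Pdk2 with anti-IgG and at 1.73, 1.82 and 2.24 times with anti-PD-1, and these groups did not overlap. The ratio of Pdk4 to Pdk1 did overlap, from 2.69 to 7.41 with anti-IgG and from 2.45 to 4.66 with anti-PD-1. The order of Pdk4 and Pdk2 in the controls depended on the length used. Per length of coding sequence and 3' UTR, Pdk2 made up 51.2% and Pdk4 37.7% of the kinase level with anti-IgG, and 34.1% and 46.9% with anti-PD-1. No length trend was taken out of these shares and ratios. On the log2 scale Pdk4, Pdk1 and Pdk2 stood at 0.61, 0.87 and -0.01 with the trend on coding and 3' UTR length removed. They were farther apart without that correction, at 0.77, 1.22 and -0.11.

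**Figure D2:**
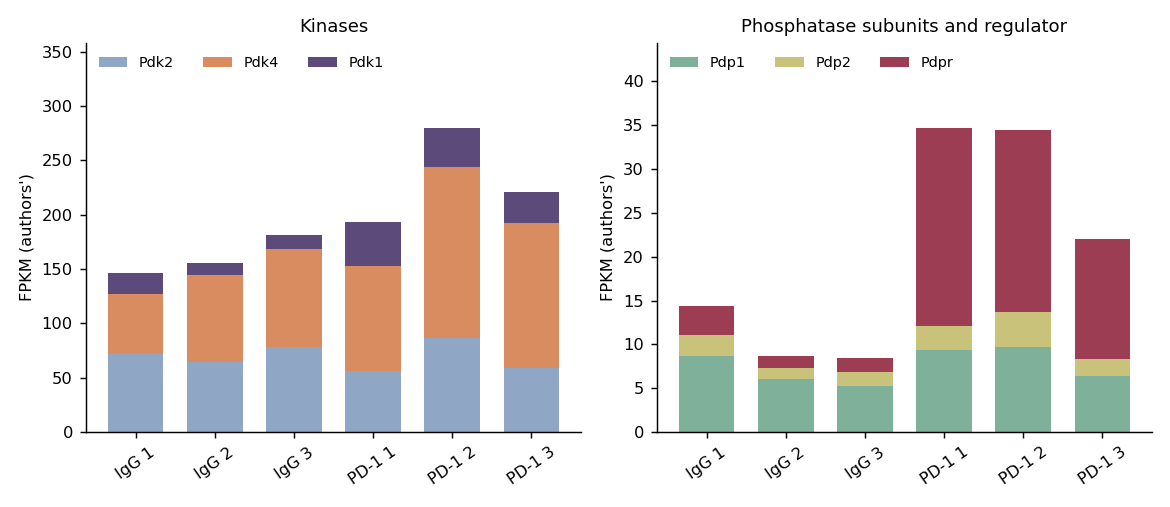
Stacked bars of the authors' FPKM in each library for the kinases Pdk2, Pdk4 and Pdk1 (left) and for the phosphatase subunits Pdp1 and Pdp2 and the regulatory subunit Pdpr (right); both y axes start at 0. Pdpr is the smallest or middle part of the right-hand bars with anti-IgG (1.34 to 3.24 FPKM) and the largest part with anti-PD-1 (13.7 to 22.6 FPKM).

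The phosphatase catalytic subunits were scarcer than the kinases of the set. Pdp1, the calcium-stimulated form of muscle, had 41.4, 29.3 and 25.4 CPM with anti-IgG and 44.4, 46.8 and 29.9 CPM with anti-PD-1, and the groups overlapped (log2 fold change 0.33, SE 0.23, adjusted p = 0.321 by edgeR). Pdp2, the form that does not depend on calcium, had 15.1, 8.33 and 9.81 CPM with anti-IgG and 16.1, 24.6 and 11.5 CPM with anti-PD-1. Its groups overlapped too, through anti-IgG library 1 and anti-PD-1 library 3 (log2 fold change 0.65, SE 0.31, adjusted p = 0.15 by edgeR). Both catalytic subunits lay above 0 on the log2 scale in each of the 19 alternatives. Pdp2 passed the threshold in 1 of them, the analysis without a count filter (adjusted p = 0.0485 by edgeR). That fit gave nearly the same fold changes. Its SE was smaller for Pdk1, Pdk4, Pdp1, Pdp2 (0.24) and Pdpr, and larger for Pdha1, Pdhb, Dlat, Pdhx and Pdk2. The adjusted p of Pdpr was 6.6e-40 by edgeR.

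Pdpr and its catalytic partners changed place. In the anti-IgG libraries Pdpr stood at 0.292, 0.183 and 0.232 times the summed FPKM of Pdp1 and Pdp2, and in the anti-PD-1 libraries at 1.87, 1.52 and 1.66 times. The regulatory subunit's transcript was thus below the catalytic sum in all anti-IgG libraries and above it in all anti-PD-1 libraries. Pdp1 stood at 3.72 ± 0.63 times Pdp2 with anti-IgG and 3.06 ± 0.57 times with anti-PD-1 (SD, n = 3 each), and these ranges overlapped.

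The catalytic core was abundant in every library. Pdha1, which carries the serines that the kinases phosphorylate, had 368, 277 and 391 CPM with anti-IgG and 461, 632 and 475 CPM with anti-PD-1, without overlap (log2 fold change 0.60, SE 0.22, adjusted p = 0.0760 by edgeR; 0.0235 by DESeq2). Pdhb had 733, 509 and 539 CPM with anti-IgG and 503, 591 and 487 CPM with anti-PD-1. Its groups overlapped, and anti-IgG library 1 was the highest of all 6 (log2 fold change -0.17, SE 0.22, adjusted p = 0.598 by edgeR). Its sign was not stable: without anti-IgG library 1 the value was 0.01, and with the trend on coding and 3' UTR length taken out it was 0.24.

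The E1 genes therefore differed in their balance. Pdha1 stood at 0.519, 0.562 and 0.749 times the FPKM of Pdhb with anti-IgG and at 0.949, 1.11 and 1.01 times with anti-PD-1, so the ratio was higher in each anti-PD-1 library than in any anti-IgG library. The authors' gene length of Pdhb, 3861 bp, is much longer than its 1077 bp of coding sequence and 343 bp of 3' UTR, while Pdha1 has 3734, 1170 and 1577 bp. Per length of coding sequence and 3' UTR, Pdhb stood at 418 ± 85.6 and Pdha1 at 126 ± 22 CPM per kb with anti-IgG, so the level of 1 E1 gene relative to the other rests on the length chosen. A fixed length cancels from the change in that ratio, but the length trend does not. With the trend on coding and 3' UTR length taken out, Pdha1 stood at 0.55 and Pdhb at 0.24 on the log2 scale, closer together than the 0.60 and -0.17 without that correction.

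Dlat, the E2 core, had 287, 231 and 292 CPM with anti-IgG and 358, 436 and 322 CPM with anti-PD-1, again without overlap (log2 fold change 0.46, SE 0.20, adjusted p = 0.125 by edgeR). Pdhx, which binds E3 to that core, had 90.3, 77.5 and 105 CPM with anti-IgG and 98.6, 125 and 93.3 CPM with anti-PD-1, with overlap (log2 fold change 0.22, SE 0.19, adjusted p = 0.436 by edgeR). The FPKM ratio of Dlat to Pdhx was 2.40 ± 0.16 in the anti-IgG and 2.83 ± 0.08 in the anti-PD-1 libraries (SD, n = 3 each). These ranges did not meet, although the ratio moved by only 0.24 on the log2 scale. With the trend on coding and 3' UTR length taken out the order turned, with Dlat at 0.23 and Pdhx at 0.28. Dld, the E3 enzyme shared with other dehydrogenase complexes, stood at 0.34 on the log2 scale (SE 0.22, adjusted p = 0.267 by edgeR).

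Ordered by FPKM in the anti-IgG libraries, the genes ran Pdhb, Pdha1, Pdk4, Pdk2, Dlat, Pdhx, Pdk1, Pdp1, Pdpr and Pdp2. Of neighbours in that order, Pdha1 and Pdk4, Pdk4 and Pdk2, Pdhx and Pdk1, and Pdpr and Pdp2 had overlapping ranges. With anti-PD-1 the order was Pdha1, Pdk4, Pdhb, Dlat, Pdk2, Pdk1, Pdhx, Pdpr, Pdp1 and Pdp2. The first 3 genes, at 132 ± 21.7, 129 ± 30.4 and 129 ± 11.5 FPKM (SD, n = 3), could not be separated by FPKM. Dlat and Pdk2, and Pdk1 and Pdhx, also had overlapping ranges there. Per length of coding sequence and 3' UTR, Pdhb was instead above Pdha1 and Pdk4 in every anti-PD-1 library. The means were then 371 ± 39.6 CPM per kb for Pdhb, 190 ± 34.5 for Pdha1 and 144 ± 35.7 for Pdk4 (SD, n = 3 each). The kinases together stood at 0.72 ± 0.15 times the FPKM of the E1 genes together with anti-IgG and 0.88 ± 0.07 times with anti-PD-1, with overlap. Both the level of this ratio and its overlap rest on the authors' lengths, that of Pdhb among them.

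**Figure D3:**
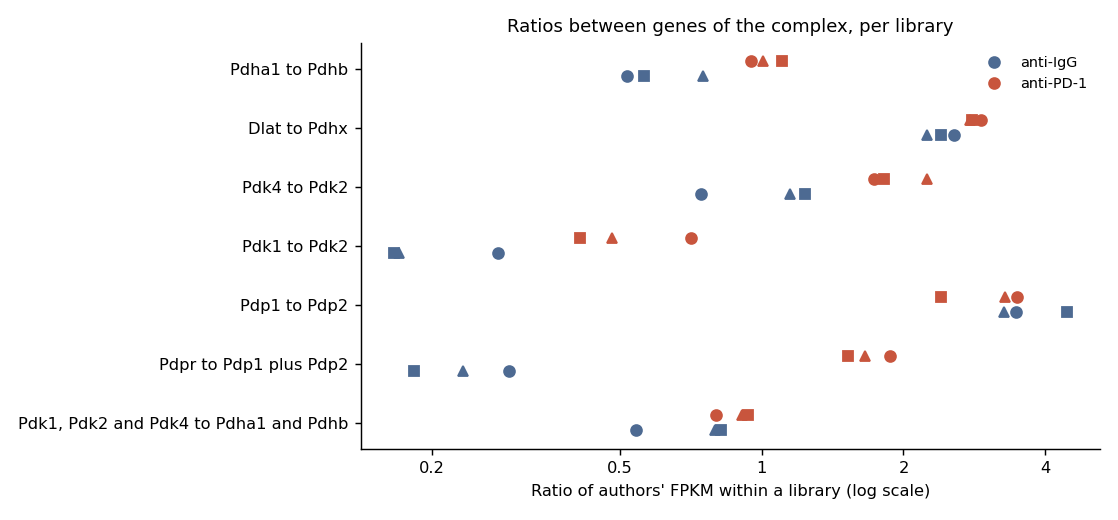
Ratio of the authors' FPKM between genes of the set within each library (x axis, log scale; circles, squares and triangles are libraries 1 to 3). The groups do not meet for Pdha1 to Pdhb, Dlat to Pdhx, Pdk4 to Pdk2, Pdk1 to Pdk2 and Pdpr to the summed catalytic subunits. They overlap for Pdp1 to Pdp2 and, with the authors' lengths, for the kinases against the E1 genes.

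Gene length moved with the difference between the groups. The rank correlation between log2 fold change and the authors' gene length was 0.49 over the 14807 tested genes, a relation across genes that are no replicates. Within the set, the authors' lengths ran from 3163 bp in Pdk2 to 7779 bp in Pdk1, with 5028 bp in Pdpr. With each library's trend on that length taken out, Pdpr stood at 3.13, Pdk1 at 0.96 and Pdk4 at 0.87 on the log2 scale, and all 3 were past the threshold (adjusted p = 0.00334, 0.0276 and 0.0444 by edgeR). With the trend on coding and 3' UTR length taken out, 5.63% of all tested genes were past the threshold and so were 2 of the 10, Pdpr at 2.80 (SE 0.31, adjusted p = 0.00383 by edgeR) and Pdk1 at 0.87 (SE 0.22, adjusted p = 0.0414 by edgeR). Pdk4 was then at 0.61 (adjusted p = 0.176 by edgeR), Pdha1 at 0.55, Pdk2 at -0.01, Pdp2 at 0.26 and Pdp1 at 0.07, and the median of the 10 was 0.27.

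**Figure D4:**
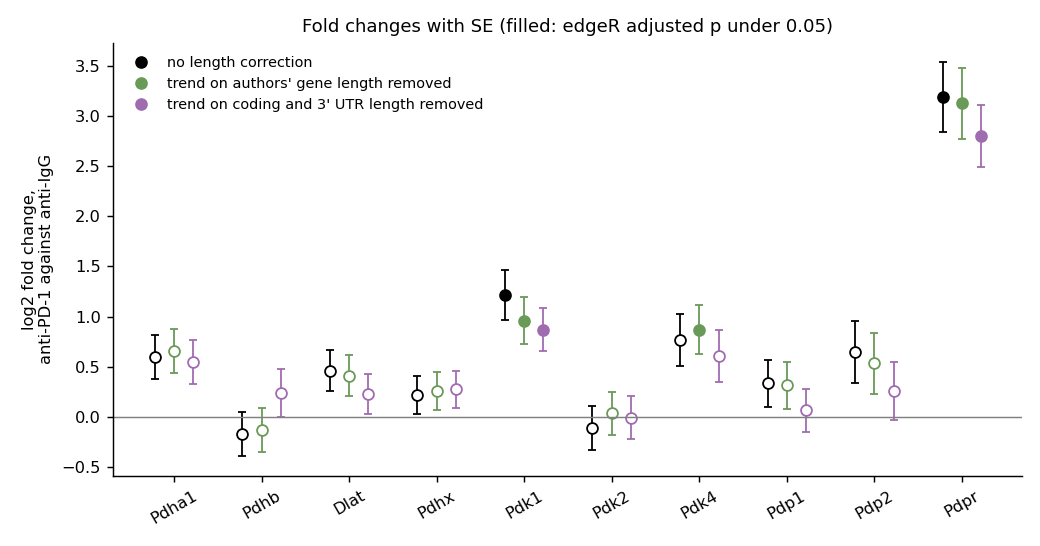
Log2 fold change of each gene, anti-PD-1 against anti-IgG, with its SE (y axis), without a length correction (black), with the gene length trend removed, by the authors' lengths (green), and with the trend on coding and 3' UTR length removed (purple); filled points have an edgeR adjusted p under 0.05. Pdpr lies between 2.80 and 3.19 and Pdk1 between 0.87 and 1.22 in all 3 fits, and the value of Pdk4 is filled in 1 of them.

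Around the complex, 72 genes in 7 lists were chosen by their role, and all 72 were tested: 7 were higher and 5 lower past the threshold, with a median log2 fold change of 0.03. These 12 of 72 stand beside 21.1% of all tested genes, and the 7 and 5 beside 10.3% and 10.8%, so neither share was above that of all genes. Of these 12 calls, those of Ppara and Smdt1 held in every alternative and the other 10 ended in at least 1.

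The list of factors known to act on Pdk genes held the most calls, with 6 of 14 members higher, 0 lower and 8 not past the threshold, and a median of 0.74. DESeq2 called 9 of them higher and limma-voom 4, with 0 lower by either. Ppara, the fatty-acid-sensing receptor that drives Pdk4 in muscle and heart, had 5.28, 2.13 and 3.20 CPM with anti-IgG and 27.6, 50.0 and 14.7 CPM with anti-PD-1 (log2 fold change 3.11, SE 0.49, adjusted p = 0.00737 by edgeR). Every anti-PD-1 library was above every control, but the anti-PD-1 libraries spread widely among themselves. With coding and 3' UTR length corrected it remained at 3.02 (adjusted p = 0.0221 by edgeR). Esrrg, an oestrogen-related receptor of oxidative muscle, rose from a mean of 33.0 ± 6.91 to 59.4 ± 6.24 CPM (0.85, SE 0.20, adjusted p = 0.0155 by edgeR), and the glucocorticoid receptor Nr3c1 from 98.3 ± 22.9 to 173 ± 27.4 CPM (0.81, SE 0.21, adjusted p = 0.0247 by edgeR). The coactivator Ppargc1b (0.93) and the forkhead factors Foxo3 (1.11) and Foxo1 (0.79) rose as well (adjusted p = 0.0356 to 0.0458 by edgeR). With the coding and 3' UTR length trend removed only Ppara of the 6 was past the threshold by edgeR. Ppargc1b was then close to its uncorrected value, at 0.90 (adjusted p = 0.0622 by edgeR). Foxo3 was at 0.61 and Esrrg at 0.50, and Nr3c1 and Foxo1 were each at 0.26 (adjusted p = 0.109 to 0.442 by edgeR). Without anti-IgG library 2 the calls of Esrrg, Nr3c1, Ppargc1b, Foxo3 and Foxo1 all ended (adjusted p = 0.0644 to 0.190 by edgeR), with log2 values of 0.64 to 1.11. The call of Nr3c1 further needed anti-IgG library 3 and anti-PD-1 library 1, and calls ended for Ppargc1b without any but anti-PD-1 library 1, Foxo3 without any but anti-PD-1 library 3 and Foxo1 without any but anti-IgG library 1 (0.0553 to 0.190).

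Mitochondrial calcium, which stimulates PDP1, enters through the calcium uniporter. Of 9 genes of calcium entry and exit, 0 rose and 1 fell, with a median of -0.13. At an unadjusted p under 0.05 there were 2 such genes, and DESeq2 and limma-voom also called 1 lower and 0 higher. The one that fell was Smdt1, which encodes EMRE, the uniporter subunit needed for calcium uptake, with 53.3, 71.4 and 80.2 CPM with anti-IgG and 17.1, 27 and 24.5 CPM with anti-PD-1. The groups were far apart (log2 fold change -1.58, SE 0.22, adjusted p = 0.00395 by edgeR). At 1479 bp Smdt1 is shorter than any gene of the set, and with coding and 3' UTR length corrected its value was -0.59 (SE 0.16, adjusted p = 0.0497 by edgeR). Mcur1, a regulator of the uniporter, was at 0.45 (SE 0.18, adjusted p = 0.0857 by edgeR).

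Of 15 genes for the remaining components and for lipoate and thiamine supply, 2 fell, 0 rose and 13 did not pass, with a median of -0.35 (unadjusted p under 0.05 in 6; DESeq2 and limma-voom called the same number, 2 lower and 0 higher). Isca2, an iron-sulphur assembly protein needed to make lipoate, fell from a mean of 29.7 ± 3.09 to 15.3 ± 4.76 CPM (log2 fold change -0.96, SE 0.24, adjusted p = 0.0191 by edgeR). Bola3, which delivers iron-sulphur clusters to lipoate synthase, fell from a mean of 76.4 ± 16.7 to 47.0 ± 10.1 CPM (-0.70, SE 0.22, adjusted p = 0.0426 by edgeR). Both calls ended without any 1 of anti-IgG libraries 2 and 3 or anti-PD-1 libraries 1 and 3 (adjusted p = 0.0505 to 0.165 by edgeR), and with coding and 3' UTR length corrected the values were -0.18 and -0.31 (adjusted p = 0.619 and 0.340 by edgeR).

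Among 14 genes of pyruvate supply and its other fates, 1 rose, 1 fell and 12 did not pass, with a median of 0.04. Mpc2, a subunit of the carrier that brings pyruvate into mitochondria, fell from a mean of 243 ± 36.5 to 141 ± 13.5 CPM (log2 fold change -0.78, SE 0.19, adjusted p = 0.0189 by edgeR). The direction turned with coding and 3' UTR length corrected, where Mpc2 was at 0.16 (adjusted p = 0.639 by edgeR), while its partner Mpc1, at -0.15 without the correction, was at 0.64 with it (adjusted p = 0.0499 by edgeR). Me1, cytosolic malic enzyme, rose from a mean of 91.1 ± 13.8 to 143 ± 23.3 CPM (0.65, SE 0.20, adjusted p = 0.0384 by edgeR). Its call ended with coding and 3' UTR length corrected (0.57, adjusted p = 0.0968 by edgeR) and with upper quartile scaling (0.56, adjusted p = 0.0521 by edgeR). Mpc2 lost its call without any 1 of anti-IgG libraries 2 and 3 or anti-PD-1 libraries 1 and 3 (adjusted p = 0.0584 to 0.0745 by edgeR), and Me1 when any library except anti-IgG library 3 was left out (0.0628 to 0.159).

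Of 8 genes for uses of acetyl-CoA, 1 fell, 0 rose and 7 did not pass, with a median of -0.09. The only member at an unadjusted p under 0.05 was also the one that DESeq2 and limma-voom called, the citrate carrier Slc25a1. It fell from a mean of 9.77 ± 1.78 to 4.78 ± 1.32 CPM (log2 fold change -1.03, SE 0.27, adjusted p = 0.0247 by edgeR). Its call ended when any of anti-IgG libraries 2 and 3 or anti-PD-1 libraries 1 and 2 was left out (adjusted p = 0.0576 to 0.106 by edgeR) and with either length correction (0.116 and 0.119).

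In the sister complexes for 2-oxoglutarate and branched-chain 2-oxoacids, 0 of 9 genes passed by edgeR, DESeq2 or limma-voom, with 2 at an unadjusted p under 0.05 by edgeR and a median of 0.32. The branched-chain phosphatase Ppm1k stood at 0.64 (SE 0.27) and Dbt at 0.40 (SE 0.18; adjusted p = 0.114 and 0.133 by edgeR). Of the deacylases Sirt3, Sirt4 and Sirt5, 0 of 3 passed by any of these tools, 1 had an unadjusted p under 0.05 by edgeR, and all were below 0. Sirt4, which can remove lipoate from E2, was at -0.76 (SE 0.29) and Sirt5 at -0.48 (SE 0.22; adjusted p = 0.0794 and 0.137 by edgeR).

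**Figure D5:**
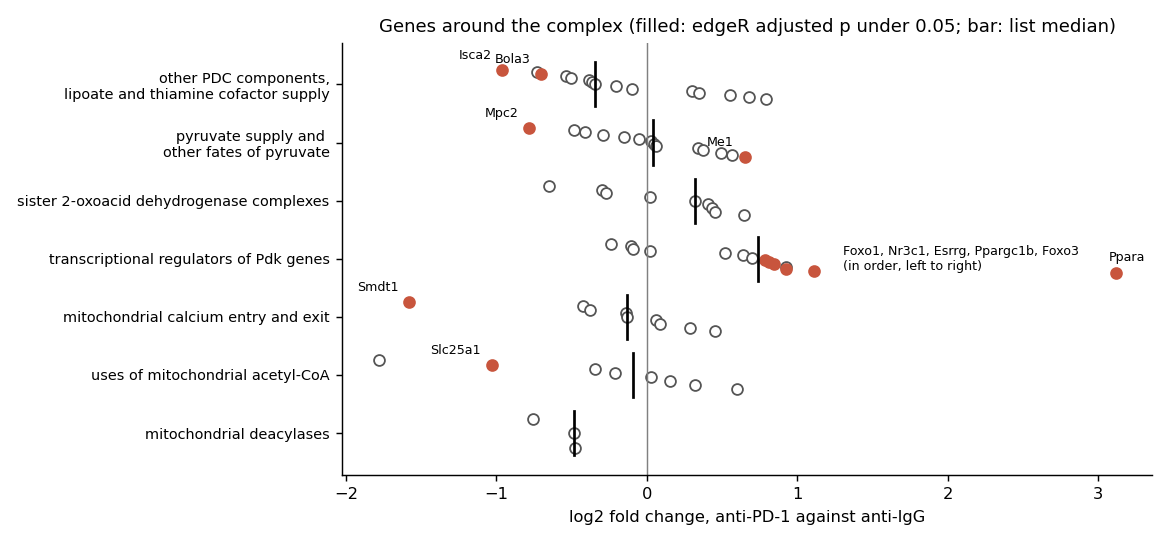
Log2 fold change (x axis) of the 72 genes around the complex by list, 1 point per gene; filled points have an edgeR adjusted p under 0.05 and are named, and the vertical bar is the list median. The list of factors acting on Pdk genes has its median at 0.74 and Ppara at 3.11, and Smdt1 stands at -1.58 in a list with a median of -0.13.

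Genes whose CPM on the log2 scale followed that of Pdpr most closely over the 6 libraries were Cbl, Dnmt3a, Aff4, Ago2 and Kpna1, each with a Pearson correlation of 0.999 among 11378 candidates. Their log2 fold changes were 0.69 to 1.34, and their lengths, 8486 to 16642 bp, were all above that of Pdpr. For Pdk4 they included Rubcn (0.997), Wipi1 (0.991), Mettl2 (0.991) and Midn (0.977), with log2 fold changes of 0.20 to 0.91. The 6 points are 2 groups of 3 libraries, so these correlations hold the difference between the groups as well as the spread within them.

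Of genes that overlap a member or lie within 1000 bp of one there were 7, next to 6 of the 10 members, and besides 9430091E24Rik the one past the threshold was Apip. It begins 161 bp from Pdhx on the opposite strand and had 715, 875 and 862 reads with anti-IgG and 315, 480 and 465 with anti-PD-1 (log2 fold change -1.01, SE 0.21, adjusted p = 0.0116 by edgeR), where Pdhx did not pass. With coding and 3' UTR length corrected Apip was at -0.26 (adjusted p = 0.367 by edgeR), and its call ended without anti-IgG library 2 (0.0588). Map3k15, which shares 603 bp of exon with Pdha1, had 9 to 29 reads per library against at least 4945 for Pdha1.

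The libraries held 18063344 to 21093163 counted reads each. Ventricular markers were present in all of them: the 9 genes summed to 32884 to 41014 CPM with anti-IgG and 20488 to 35834 with anti-PD-1, where 1 rose (Ryr2) and 3 fell (Myl2, Tnni3 and Tnnt2). With the coding and 3' UTR length trend removed 0 of these 9 passed by edgeR in either direction, with 4 at an unadjusted p under 0.05, and their median was 0.03 in place of -0.47. The atrial list summed to 124 to 737 and 122 to 159 CPM, mostly Nppa (means 457 and 135 CPM), with Sln at 0 reads in every library. That of skeletal muscle summed to 2954 to 6276 and 5889 to 7967 CPM. Most of it was Acta1 (means 4235 and 5992 CPM) and Ckm (670 and 628 CPM). Myh1 and Myh2 had at most 12 reads each over all libraries, and Myh4 was at 0. The adipocyte list summed to 465 to 667 CPM with anti-IgG and 127 to 267 CPM with anti-PD-1, mostly Fabp4 (means 564 and 182 CPM). Ucp1, the defining gene of brown fat, was at 0 in all. The atrial, skeletal muscle and adipocyte sums thus rest on few genes and do not by themselves show these cell types. Fibroblast genes summed to 1608 to 2644 and 1950 to 3681 CPM, endothelial to 1396 to 1554 and 1238 to 1529, mural to 1755 to 2049 and 1942 to 2306, macrophage to 297 to 547 and 326 to 352, and lymphocyte to 3.69 to 5.66 and 2.79 to 3.59. Of these lists, 1 macrophage gene rose (Adgre1) and 1 fell (C1qa), 1 lymphocyte gene (Cd79a) and 1 adipocyte gene (Fabp4) fell, and none of the tested fibroblast, endothelial, mural, atrial or skeletal muscle genes passed by edgeR. The part of these cell types in the values above was not tested.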

How the data were processed

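Messenger RNA of 6 left ventricles or pools of them (3 libraries per antibody) was sequenced. The authors deposited raw read counts per gene; per the submitters' processing notes featureCounts and mm10 were used, and no source used here gives an aligner, annotation or strand setting. The authors also deposited FPKM values, which equal the count divided by their gene length and by 1 constant per library. Counts were tested over all genes with edgeR 4.0.16 in R 4.3.3 (filterByExpr, TMM, glmQLFit with robust=TRUE, 2-sided quasi-likelihood F test, Benjamini-Hochberg adjusted p under 0.05), after a check on simulated data. The SE is the fold change divided by the square root of F. The members and lists were chosen with earlier results of these data known. All members were named, in each list the 2 genes with the smallest unadjusted p plus the others past the threshold, and for likeness the 5 genes averaging at least 1 log2 CPM (prior count 2) with an informative symbol and the highest Pearson correlation; genes next to members were taken by position. Some genes that this rule names are not reported here. Dld, Pdk3, Mpc1 and marker genes past the threshold or making up most of a list sum were chosen after their values were seen. So were the ratios Pdk1 to Pdk2, Pdha1 to Pdhb and Dlat to Pdhx. Alternatives were other scalings and count filters, DESeq2 1.42.0, limma 3.58.1 (voom, and trend on log2(FPKM + 1) and log2(FPKM + 0.1)), the replicate number as a block, length trends removed as an offset (natural splines of 5 degrees of freedom, lengths from GENCODE M21, longest transcript with a coding sequence and a 3' UTR), mitochondrially encoded and haemoglobin genes left out, and each library left out. Length corrections were planned with the trend already known.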

Additional observations from a re-analysis of the deposited data

How the results depend on the processing

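Of the 10 genes, Dlat, Pdhx, Pdp1 and Pdpr kept their direction and their side of the threshold in all 19 alternatives. The number called was 2 in the main analysis. It was 4 without the count filter and 4 by DESeq2, and 1 to 2 when 1 library was left out; Pdha1 was past the threshold by DESeq2 only (adjusted p = 0.0235). On the log2 scale Pdhb turned positive with coding and 3' UTR length corrected (0.239) and without anti-IgG library 1, and ran from -0.292 to 0.00997 without 1 library. Pdk2 turned positive with gene length corrected (0.0343, or 0.00646 with the replicate block added) and without anti-PD-1 library 1, and ran from -0.337 to 0.0166 without 1 library. Of all genes 3118 were called, 1525 higher and 1593 lower. With gene length corrected these were 1526, 766 and 760, with coding and 3' UTR length corrected 833, 433 and 400, and with the replicate block and gene length together 1466, 715 and 751. Leaving out 1 library gave 532 to 3646 called, 216 to 1805 higher and 316 to 1841 lower; the counts called were 532 and 1564 with anti-IgG library 2 or 3 left out, and 969 and 1766 with anti-PD-1 library 1 or 3 left out. Upper quartile scaling put 36.8% of the calls upwards, against 48.9%, and the median of all genes at -0.12. Of the 72 surrounding genes, 7 rose and 5 fell. The number that rose was 4 with upper quartile scaling, 13 without the count filter, 4 with gene length corrected, 2 with coding and 3' UTR length corrected and 2 with the replicate block and gene length; the number that fell was 3, 1 and 2 in the last 3 of these. Without 1 library, 1 to 7 rose and 1 to 6 fell. The cause of these shifts was not tested. Same-numbered libraries did not deviate together in every pair (correlations of their deviations from the group means 0.12, -0.14 and 0.21), so the numbers were not taken as pairs. With the replicate block alone 3367 genes were called and 3 of the 10, Pdk4 being the third (adjusted p = 0.0287). Per coding and 3' UTR length the kinase shares with anti-IgG and anti-PD-1 moved to 51.2% and 34.1% for Pdk2 and to 37.7% and 46.9% for Pdk4. With 3 libraries per group, a gene as scarce as Pdk3 was measured with an SE of 0.31.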
